A study of Larimichthys crocea with 2 samples.

Results

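Genes named for complement, interferon responses, antigen presentation, STAT and SOCS signalling, toll-like receptors and chemokines were examined in muscle of Larimichthys crocea, the large yellow croaker, a farmed sea fish. They were chosen by the start or content of their protein names, and 210 of the 22321 genes in the expression table carried such a name. The name rule used no expression value. Protein names such as HLA, H-2 or Mx come from matches to proteins of other vertebrates, so a name shows resemblance and does not establish the same function in this fish.

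The data were 2 RNA sequencing libraries of muscle, 1 from fish without treatment (the control library) and 1 from fish fasted for 21 days (the fasted library). The sources used here do not give the muscle, the age of the fish or how many fish each library pools. As no group has a replicate, no difference below could be set against a spread between samples. The control library held 27519918 reads in listed genes and the fasted library 26593839, of which 33632 and 50388 fell in the genes described here.

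Complement is a set of blood proteins that mark and lyse microbes. Its early components recognise a target, a cascade of proteases cleaves C4 and C3, the late components C6 to C9 assemble into a pore, and factor H holds the cascade in check on the body's own cells. Interferons are secreted when a cell senses viral RNA, and their receptors act through STAT transcription factors to switch on antiviral genes and class I antigen presentation. STATs also carry signals of growth hormone and of interleukin 6, and the SOCS proteins and CISH are induced by STATs and dampen the same receptors. Resting muscle fibres are known to carry little class I, and class II molecules and chemokine receptors are known mainly from leukocytes.

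Levels are RPKM as the authors deposited them (reads scaled to the length of the gene model and to the total of the library). The ratio of a gene is log2 of fasted over control RPKM, with 0.5 RPKM added to each value, relative to the median gene, which stood 0.48 higher in the fasted library (1.40-fold). A gene with a ratio of 0 therefore had a somewhat higher deposited RPKM in the fasted library. Intervals are 95% intervals of the read ratio on the same centred scale. They cover counting error only and contain no pseudocount, so the ratio of a low gene can lie outside its interval. In bulk muscle, fewer cells of a type and less RNA per cell cannot be told apart.

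Most of the 210 genes were low. Listed RPKM was 0 in both libraries for 47 genes, 75 had some value but a mean under 1 RPKM, and 88 reached a mean of 1 RPKM and entered the comparison. Of these 88, 16 were at least 2-fold higher in the fasted library, where 16.1% of all 11417 genes entering were, and 12 were at least 2-fold lower, where 16.6% of all genes were. The shares, 18.2% higher and 13.6% lower, lay close to that background, and the median ratio of the 88 genes was -0.06. On RPKM as deposited, without centring, 28 were higher and 6 lower, against 29.7% and 8.88% of all genes, and the median was 0.42. The genes are given by role, and they went both ways within several roles. Counts past 2-fold in the roles and lists below are to be read beside the shares of all genes, 16.1% higher and 16.6% lower.

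**Figure D1:**
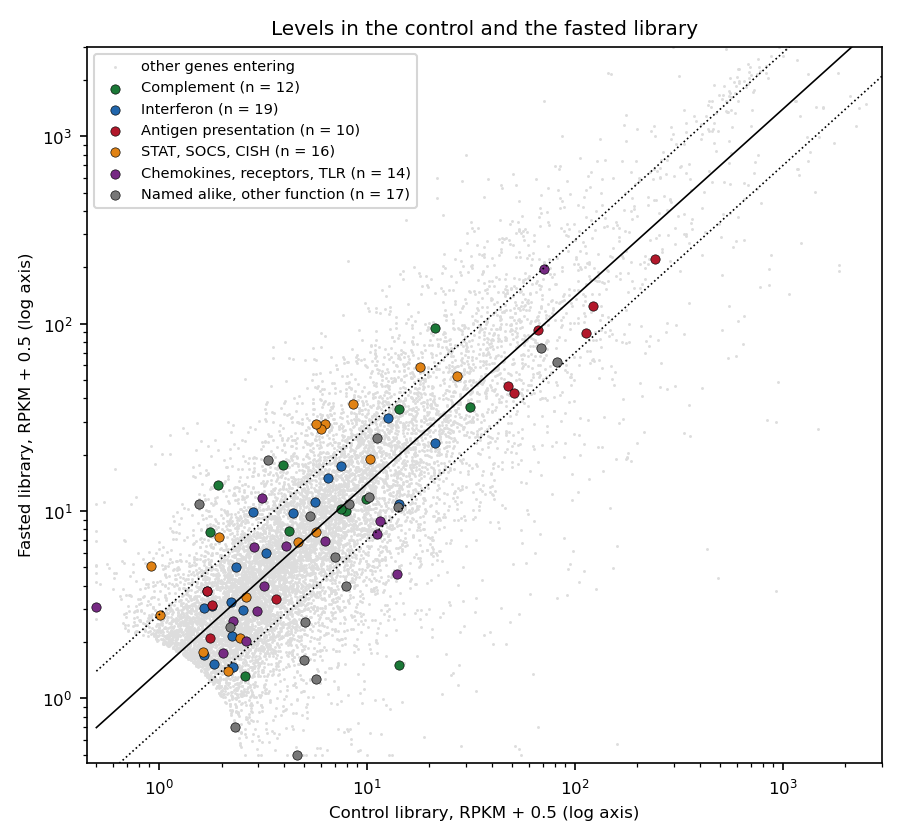
Each point is a gene that entered the comparison, placed by its RPKM + 0.5 in the control library (x, log axis) and in the fasted library (y, log axis); coloured points are the 88 genes described here by role and grey points the other genes within the axes. The solid line is the ratio of the median gene and the dotted lines are 2-fold from it. Most coloured points lie between the dotted lines, STAT, SOCS and CISH genes include several above them, and the 6 genes of antigen presentation above 40 RPKM lie on or under the solid line.

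Of 39 genes of the complement cascade and its regulators, 14 were at 0 in both libraries and 12 entered. Of these 12, 4 were past 2-fold higher and 2 lower, with a median ratio of 0.18. The shares, 33.3% and 16.7%, stood beside 16.1% and 16.6% of all genes entering. Early components of the classical pathway were measured at moderate levels and lay within 2-fold. C1s, the protease of the first complex, stood at 30.7 RPKM in the control library and 35.4 after fasting (gene16620, ratio -0.28). C1q subunit B, part of the recognition protein, stood at 9.35 and 11.1 RPKM (gene22075, -0.24). The 2 genes named C1q subunit C, which lie beside it, had ratios of -0.14 (gene22073) and -0.03 (gene22074). All these ratios were near 0 on the centred scale and turned positive on RPKM as deposited. C4, the thioester protein that C1s cleaves, stood at 13.8 and 34.7 RPKM (gene7485, 0.81, interval 0.77 to 0.92), short of 2-fold. The 5 genes named C1r or C1r-A, which follow C1s on the same scaffold, were at or near 0 in both libraries.

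The middle and the end of the cascade were patchy. The 7 genes named C3 fragment, the central component, reached at most 0.424 RPKM in either library, and the genes named C5, C8 and C9 were also near 0. C6, a pore component, was the complement gene with the largest ratio, at 1.41 RPKM in the control library and 13.3 after fasting (gene22337, scaffold NW_011324335.1, bases 12978 to 22969). It had 110 and 998 reads, a ratio of 2.36 and an interval from 2.46 to 3.05. C7, the pore component that joins C6, lies next to it (gene22336, bases 3048 to 11473) and stood at 3.74 and 7.29 RPKM, a ratio of 0.39. A second gene named C7 on another scaffold stood at 2.10 and 0.818 RPKM (gene5550, -1.46). The 2 C7 genes thus stood on opposite sides of the median gene, and only the one beside C6 had the higher fasted value.

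Regulators and factors of the alternative pathway held ratios far from 0 in both directions. Factor D, the protease that activates factor B, stood at 20.9 RPKM in the control library and 94.6 after fasting (gene11255, 479 and 2099 reads, ratio 1.67, interval 1.55 to 1.84). Factor B itself was low, at 0.205 and 0.980 RPKM for the higher of its 2 genes (gene14663), and factor I was near 0. Genes named factor H or factor H-related protein 1, relatives that bind C3 fragments, differed by position. Within a block of 6 factor H and factor H-related genes (scaffold NW_011323788.1), factor H gene20109 stood at 1.27 and 7.26 RPKM (bases 80030 to 83911, ratio 1.65, interval 1.55 to 2.55). Its neighbour, factor H-related protein 1 gene20108, stood at 3.45 and 17.0 RPKM (1.67). Both lay above 2-fold, and another gene of the block, gene20107, stood at 0.580 and 1.39 RPKM, just under the limit for entering. The factor H gene on another scaffold went the other way, from 13.8 RPKM and 408 reads in the control to 1.01 RPKM and 29 reads in the fasted library (gene7479, scaffold NW_011322620.1, bases 399282 to 406600). Its ratio was -3.72 with an interval from -4.84 to -3.70, the lowest of those among the 88 genes that had reads in both libraries.

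Much complement in blood comes from the liver, so liver markers were read beside these genes. Of 19 such genes, 8 were at 0 in both libraries, with fibrinogen, apolipoprotein B and apolipoprotein A-I genes at or near 0. The summed RPKM of the 19 was 4.87 in the control library and 0.866 after fasting. Most of the control sum came from serotransferrin genes, of which 1 was the only liver marker to enter (gene3340, 2.62 and 0.0847 RPKM). Some others, such as both fibrinogen alpha genes, had slightly higher fasted values. Blood markers were much lower in the fasted library. All 9 hemoglobin and erythroid genes that entered were past 2-fold lower, and the summed RPKM of the 13 listed was 577 and 45.4. Fibroblast markers were also lower, at 739 and 151 RPKM summed over 7 genes, and endothelial markers stood at 80.1 and 54.6 over 8 genes. The part of these cell types in the complement values was not tested.

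Other regulators and lectin-pathway genes, taken from a list of names, gave 7 entering genes, none higher and 3 lower past 2-fold. Their median was -0.39, and 0.09 on RPKM as deposited. The name patterns also caught clusterin-associated protein 1, which is not a complement regulator and had the highest ratio of the 7 (gene1208, 0.62). Both medians would be lower without it. Clusterin, a secreted chaperone that also blocks the pore, stood at 50.2 and 25.1 RPKM (gene15868, -1.47). Mannose-binding protein C, a lectin that starts the cascade, had a ratio of -1.18 (gene20239), 1 gene of CD59, a membrane-bound pore inhibitor, had -1.14 (gene18006), and vitronectin -0.02 (gene7587).

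**Figure D2:**
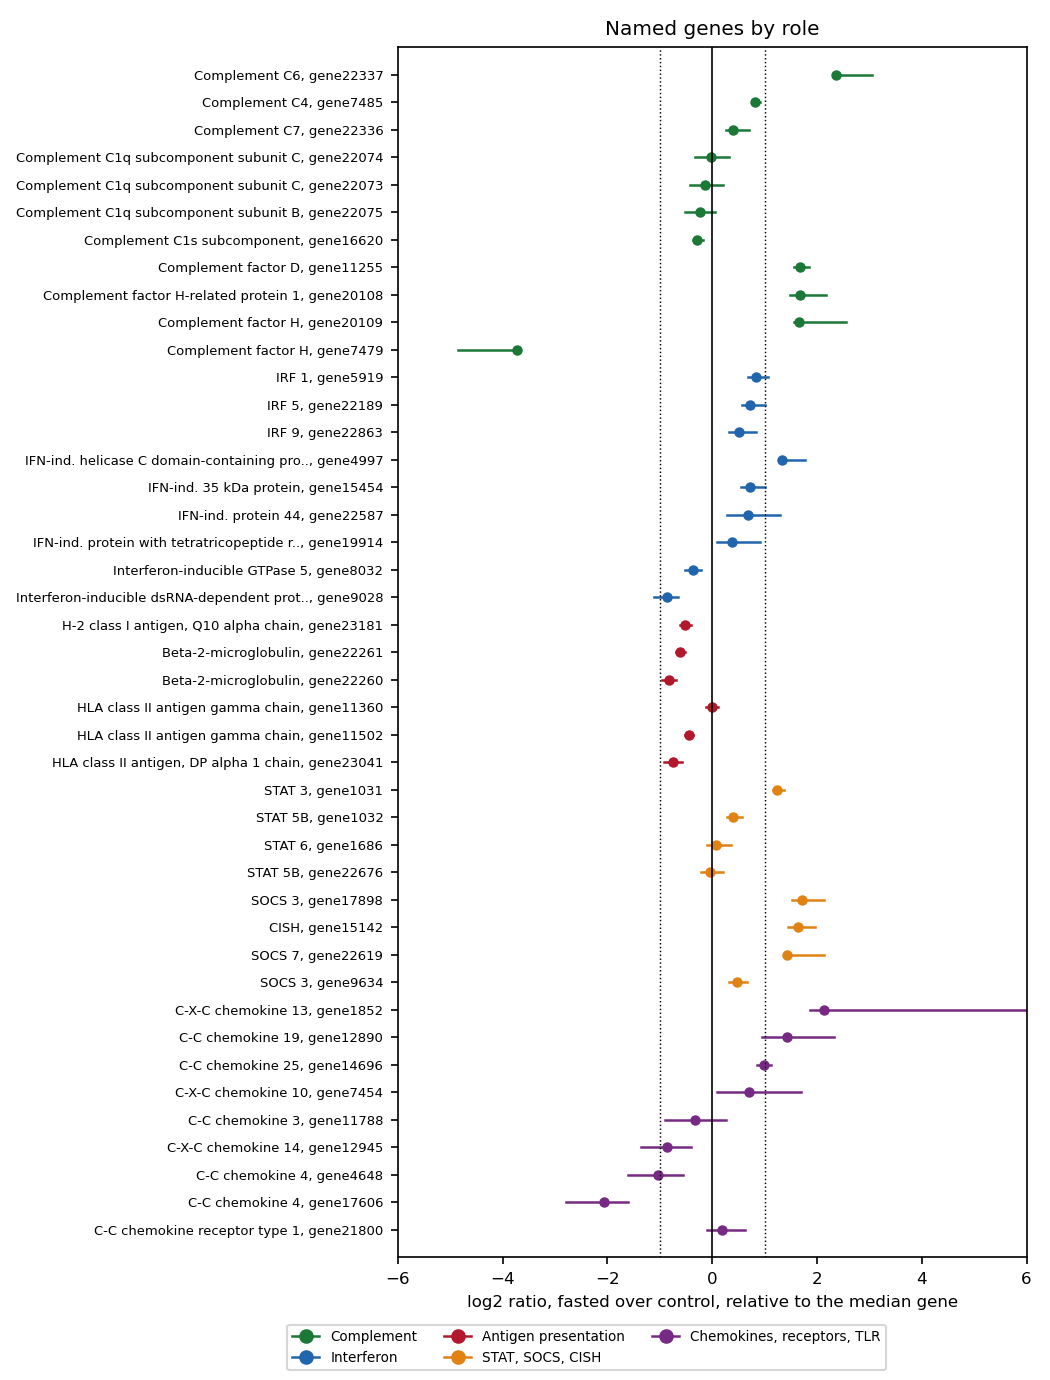
Points are the log2 ratio of fasted over control RPKM + 0.5 relative to the median gene (x) for genes of the immune roles that the naming rule chose, 1 gene per line; bars are the 95% counting interval of the read ratio, without pseudocount, and the bar of C-X-C chemokine 13 runs off the axis because it had 0 control reads. Solid line, the median gene; dotted lines, 2-fold. Complement factor H gene7479 lies farthest left at -3.72 and C6 farthest right at 2.36, while the red class I and class II genes all lie between -0.82 and 0.

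Interferon regulatory factors were mostly a little above the median gene, while interferon-induced effectors lay on both sides of it. Of 7 interferon regulatory factors (IRFs, transcription factors of this response) that entered, 6 had a ratio above 0 and none reached 2-fold higher. Their median was 0.51, and it kept its sign when RPKM was not centred (0.99) or was scaled without the 20 most abundant genes (0.35). IRF1 stood at 12.1 RPKM in the control library and 31.0 after fasting (gene5919, 0.84, interval 0.68 to 1.07). IRF5, which acts below toll-like receptors, stood at 5.99 and 14.4 RPKM (gene22189, 0.72). IRF9, the DNA-binding part of the complex that interferon activates, stood at 5.11 and 10.7 RPKM (gene22863, 0.51). IRF3 and IRF7, the factors that switch on interferon genes, had ratios of 0.64 (gene19761) and 0.32 (gene5363). IRF8, known from myeloid cells, was the exception at 1.78 and 0.978 RPKM (gene1174, -1.11), with 62 and 33 reads.

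Of 26 interferon-induced effectors, 12 entered, with 1 past 2-fold higher and none lower. Their median was 0.07, and 0.55 on RPKM as deposited. It turned to -0.10 when RPKM was scaled without the 20 most abundant genes. Of the 12, 6 had a ratio above 0. The sign of the median thus depends on the scale and on which names are counted. Without the activator of the kinase PKR given below, the middle ratio would be 0.38 (gene19914). It would be 0.22 when RPKM was scaled without the 20 most abundant genes. The 1 past 2-fold was MDA5 (interferon-induced helicase C domain-containing protein 1), a cytoplasmic sensor of long double-stranded RNA. It stood at 2.32 and 9.40 RPKM (gene4997, 190 and 744 reads, 1.33, interval 1.30 to 1.77). Interferon-induced 35 kDa protein stood at 7.03 and 16.8 RPKM (gene15454, 0.72), and the highest of the genes named interferon-induced protein 44 at 3.90 and 9.32 RPKM (gene22587, 0.67). Below 0 lay interferon-inducible GTPase 5, at 20.8 and 22.5 RPKM (gene8032, -0.37). The activator of the RNA-dependent kinase PKR was lower in deposited RPKM too, at 13.7 and 10.4 RPKM (gene9028, -0.86). This activator is counted by its name, in which the word interferon-inducible describes the kinase. PKR, which halts translation when it binds double-stranded RNA, is named by a row of neighbouring genes, whose ratios were 0.61 (gene3280), -0.25 (gene3279) and -0.53 (gene3278). The 2 genes named IFIT5, which binds viral RNA ends, had 0.38 (gene19914) and -0.75 (gene20381).

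Mx, an antiviral GTPase, is a usual readout of interferon in fish. Its highest gene stood at 0.304 RPKM in the control library and 1.66 after fasting (gene23756), a mean of 0.984 that left it just under the limit, and another stood at 0.634 and 1.25 RPKM (gene8752). Interferon lambda receptor 1, the only receptor the name rule caught, had 51 control and 29 fasted reads (gene16574, 1.22 and 0.718 RPKM). All 16 toll-like receptor genes were under the limit. The highest, TLR3, which senses double-stranded RNA in endosomes, stood at 0.474 and 0.586 RPKM (gene290).

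Further genes of interferon induction and signalling, listed by name, included a few large ratios. Of 27 entering, 2 were past 2-fold higher and 2 lower, which is 7.41% each way beside 16.1% and 16.6% of all genes, with a median of -0.19. TBK1, the kinase that activates IRF3, stood at 7.54 and 62.4 RPKM (gene17434, 2.48, interval 2.42 to 2.71). The lowest ratio at 5 RPKM or more was that of the NF-kappa-B p100 subunit (gene20537, -0.52). MAVS, the mitochondrial adaptor between MDA5 and TBK1, stood at 3.75 and 2.05 RPKM (gene23416, -1.22). Of 3 genes named JAK2, a receptor kinase, 1 stood at 2.28 and 0.535 RPKM (gene834, -1.91). The most abundant of them stood at 3.01 and 2.62 RPKM (gene4017, -0.65). MAVS and TBK1, neighbouring steps of the same route, therefore had ratios of opposite sign. A list of names of genes known to be induced by interferon in other species had 22 entering genes, 4 higher and 2 lower, with a median of 0.28. The name patterns also caught HERC1, HERC3 and HERC4, relatives not chosen for such induction, and a HERC1 gene is 1 of the 4 higher genes (gene19630, 2.06). TRIM25, a ubiquitin ligase in RNA sensing, is the name of 22 genes, of which gene2859 stood at 3.87 and 31.5 RPKM (2.39) and gene6374 at 4.97 and 3.26 RPKM (-1.03).

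**Figure D3:**
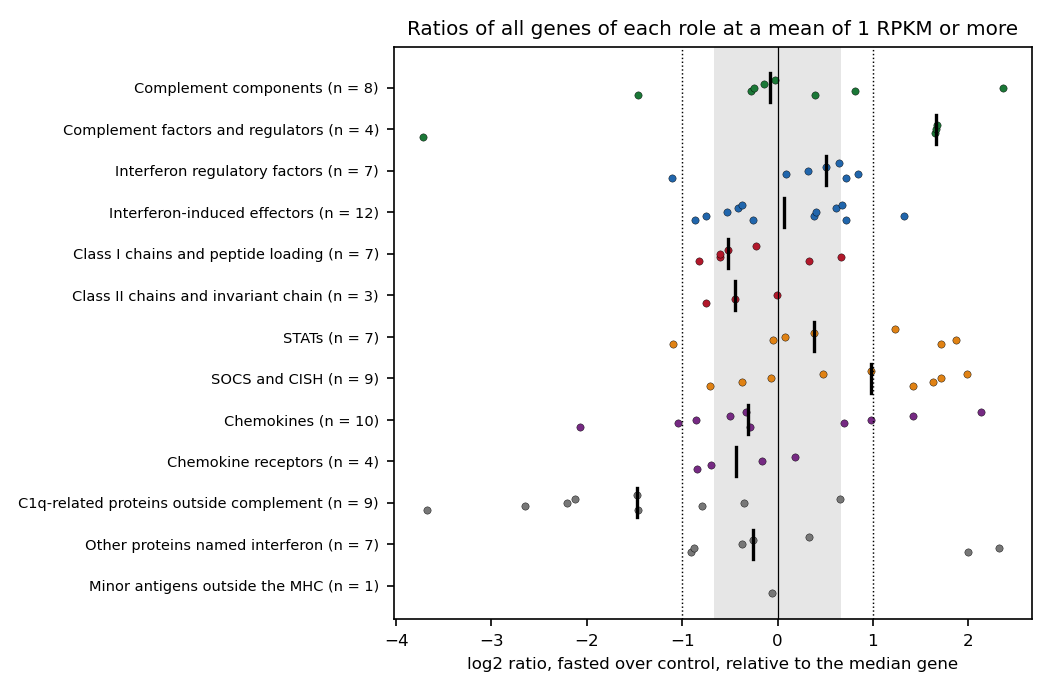
Each point is 1 entering gene, placed by its log2 ratio relative to the median gene (x) in the row of its role, with the number of genes in brackets; vertical offsets only separate points. Bars are medians of roles with more than 1 gene, the grey band is the interquartile range of all genes (-0.67 to 0.66) and dotted lines mark 2-fold. SOCS and CISH have the highest median among roles with 5 or more genes, 0.98, and C1q-related proteins outside complement the lowest, -1.48.

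Antigen presentation held beta-2-microglobulin, the most abundant gene of the set, and no gene past 2-fold. Of 20 genes, 10 entered, the summed RPKM of all 20 was 650 in the control library and 629 after fasting, and 2 of the 10 had a ratio above 0. The median ratio of -0.48 became 0.00 on RPKM as deposited, so the direction below 0 depends on the scale. On the centred scale, all genes at a mean of 20 RPKM or more had a median of 0.50. Beta-2-microglobulin, the light chain of class I molecules, stood at 242 and 222 RPKM (gene22261, -0.61), with a neighbouring gene of that name at 113 and 89.2 RPKM (gene22260, -0.82). The class I heavy chain stood at 47.3 and 46.3 RPKM (gene23181, -0.51). Peptide transport and loading were low throughout. TAP1 and TAP2, which pump peptides into the endoplasmic reticulum, had ratios of 0.33 (gene12972) and -0.22 (gene13291). Tapasin, which holds empty class I molecules at the transporter, had -0.60 (gene23324) and a tapasin-related protein 0.67 (gene5739).

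Of 11 class II and invariant chain genes, 3 entered and none was past 2-fold. Their deposited RPKM did not all move the same way. The invariant chain, which guides class II molecules to the endosome, stood at 121 and 124 RPKM in 1 gene (gene11502, -0.45) and at 66.2 and 92.5 RPKM in the other (gene11360, -0.00). A class II alpha chain stood at 50.7 and 42.0 RPKM (gene23041, -0.75). A block of 4 class II chain genes on another scaffold (gene7766 to gene7769) was at or near 0 in both libraries. Leukocyte markers, read beside these genes because leukocytes carry class II, gave 8 entering of 27 genes and none past 2-fold, with 5 at 0 in both libraries, a summed RPKM of 21.1 in the control library and 29.1 after fasting and a median ratio of -0.28. Receptor-type tyrosine-protein phosphatase C (CD45), the common leukocyte marker, stood at 2.52 and 2.62 RPKM (gene6613, -0.43). Of the 8 entering, 3 had a ratio above 0. Coronin-1A stood at 4.03 and 6.77 RPKM (gene14915, 0.20). Genes named macrophage mannose receptor 1 stood at 0.846 and 2.35 RPKM (gene10671, 0.60) and at 0.590 and 2.11 RPKM (gene13835, 0.78). The part of leukocyte content in the class II values was not tested.

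A list of genes that supply peptides or load class II molecules gave 23 entering genes, 4 higher and 3 lower, with a median of 0.05. The higher genes were all proteasome activator subunits. Subunit 4B, a nuclear activator, stood at 6.71 and 56.9 RPKM (gene2302, 2.51), and subunit 2, which interferon induces in mammals, at 7.19 and 24.3 RPKM (gene21573, 1.21). Calnexin, a chaperone of nascent class I chains and many other glycoproteins, stood at 13.1 and 4.94 RPKM (gene759, -1.81).

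STAT, SOCS and CISH genes held 7 of the 16 genes past 2-fold higher. Of 21 such genes, 16 entered, and 7 were higher and 1 lower past 2-fold. These shares, 43.75% and 6.25%, stood beside 16.1% and 16.6% of all genes entering. The median was 0.73, and the summed RPKM of all 21 was 97.7 in the control library and 286 after fasting. The median stayed above 0 when RPKM was not centred (1.21) or was scaled without the 20 most abundant genes (0.57), and under that scaling the count past 2-fold higher was again 7.

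STAT3, the transducer of the interleukin 6 family, was the most abundant STAT at 17.4 and 58.5 RPKM (gene1031, 1131 and 3667 reads, 1.24, interval 1.17 to 1.36). STAT5B, which carries growth hormone signals, lies beside it and stood at 9.82 and 18.4 RPKM (gene1032, 0.39), and another gene of that name had -0.05 (gene22676). STAT6, known from interleukin 4 signalling, had 0.08 (gene1686). Both STAT5B genes and STAT6 thus stayed within 2-fold while STAT3 did not.

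The feedback inhibitors differed by member. SOCS3, which blocks the interleukin 6 receptor subunit gp130, stood at 5.82 and 28.6 RPKM in 1 gene (gene17898, 110 and 522 reads, 1.72) and at 26.5 and 52.1 RPKM in the more abundant one (gene9634, 0.48). CISH, an inhibitor of STAT5 signalling, stood at 8.11 and 36.8 RPKM (gene15142, 152 and 667 reads, 1.63), with its second gene at 0.512 and 2.29 RPKM (gene17354, 0.98). SOCS2, an inhibitor of the growth hormone receptor in mice, had 7 control and 74 fasted reads (gene22412, 0.420 and 4.59 RPKM, 1.99). SOCS7 stood at 1.45 and 6.81 RPKM (gene22619, 1.42). These 4 names held the 4 genes past 2-fold, and SOCS4, SOCS5 and SOCS6 had ratios of -0.07, -0.71 and -0.37.

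A list of names meant for receptors upstream of STATs gave 22 entering genes, 3 higher and 3 lower, with a median of -0.11. It also caught proteins that are not such receptors. Among them were the kinase IRAK1 (gene19365, -0.21), leptin receptor gene-related protein (gene11837, 0.37) and parts of interleukin 1 receptors, all within 2-fold. The median is therefore not that of STAT receptors alone. A growth hormone receptor gene stood at 9.71 and 117 RPKM (gene12825, 3.04, interval 2.97 to 3.25), the largest ratio of any gene named here, while another of that name stood at 13.3 and 8.15 RPKM (gene5545, -1.16). The remaining growth hormone receptor gene had -0.49 (gene21047). Interleukin 6 receptor subunit beta, the gp130 chain, is the name of 4 genes. The most abundant stood at 11.8 and 53.9 RPKM (gene17499, 1.67). Another that entered stood at 2.98 and 5.69 RPKM (gene18550, 0.35), and gene1822 and gene17799 were under 1 RPKM in both libraries.

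**Figure D4:**
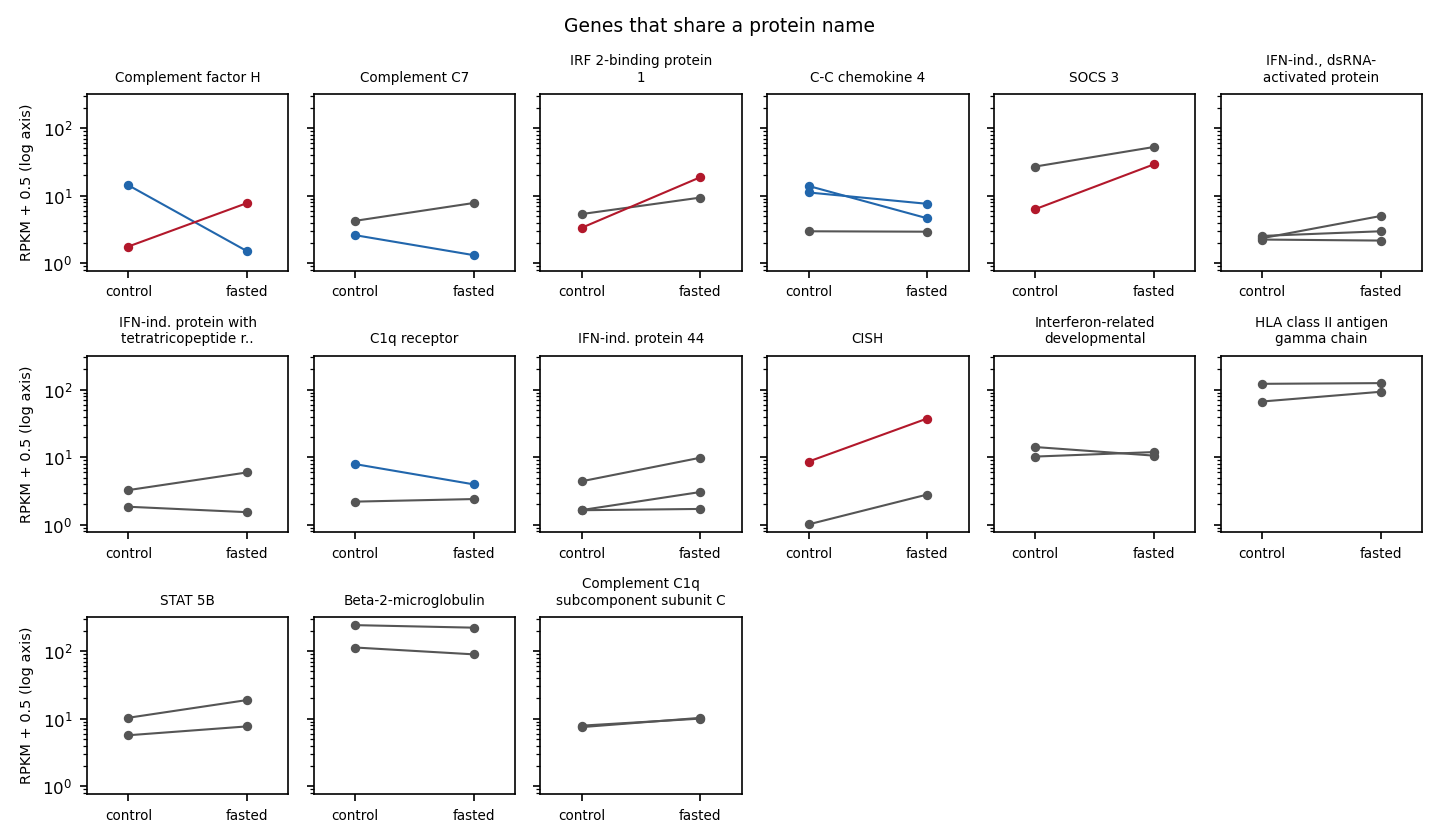
Each panel is 1 of the protein names carried by 2 or more entering genes, and each line is 1 gene, from its RPKM + 0.5 in the control to that in the fasted library (y, log axis, same scale in every panel); red marks a centred ratio at least 2-fold higher, blue at least 2-fold lower and grey in between. The panel of factor H holds a red and a blue line.

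Genes that share a name did not always share a direction. Of 16 names with 2 or more entering genes, 2 had genes past 2-fold both ways, factor H among them. In all, 131 of the 210 genes share a name with another of them and 58 lie in 20 blocks of neighbours. Reads of near-identical genes could have been split between them in the counting, so the value of 1 gene of a repeated name is less certain than that of a single gene.

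Chemokines, the secreted attractants of leukocytes, went both ways. Of 18 genes, 10 entered, 2 past 2-fold higher and 2 lower, with a median of -0.31 that was 0.17 on RPKM as deposited. CCL25, known from thymus and gut, was the most abundant at 70.8 RPKM in the control library and 196 after fasting (gene14696, 590 and 1580 reads, 0.98, interval 0.85 to 1.13), close to 2-fold. CCL19, which draws cells with the receptor CCR7, stood at 2.62 and 11.2 RPKM (gene12890, 24 and 99 reads, 1.42). CXCL13, a B-cell attractant, had 0 control and 20 fasted reads (gene1852, 2.56 RPKM in the fasted library). Its ratio was 2.13, but 0.82 with reads in place of RPKM, which is short of 2-fold. Set against an assumed floor of 3 reads in the control library it was 4.94-fold higher on the centred scale, and its counting interval starts at 1.87. CCL4, an attractant of monocytes and T cells, is named by 3 genes, none with a ratio above 0. They stood at 13.4 and 4.14 RPKM (gene17606, -2.07), 10.7 and 7.08 RPKM (gene4648, -1.04) and 2.47 and 2.43 RPKM (gene16666, -0.50). CXCL14 stood at 11.0 and 8.40 RPKM (gene12945, -0.86), CXCL10, which interferon induces in mammals, had 0.70 (gene7454, 20 and 49 reads) and CCL3 -0.33 (gene11788).

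Chemokine receptors were low, with 4 of 19 genes entering and none past 2-fold. The highest, CCR1, stood at 3.59 and 6.01 RPKM (gene21800, 0.19), and CXCR4 had -0.16, CCR9 -0.70 and CXCR3 -0.84. None of the genes named CCR7 or CXCR5, the receptors of CCL19 and CXCL13, reached 1 RPKM in either library.

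Some names that the rule caught belong to proteins outside these pathways. C1q tumor necrosis factor-related proteins are secreted relatives of adiponectin, C1q-like proteins act at synapses in mice, and the C1q receptor (CD93) is a surface protein of endothelium. Of 29 such genes 9 entered, none higher and 6 lower past 2-fold (66.7%, beside 16.6% of all genes entering). Their median was -1.48 and stayed below 0 on RPKM as deposited (-0.996). C1q tumor necrosis factor-related protein 1 had 82 control reads and 0 fasted reads (gene9981, 4.09 RPKM in the control). Set against an assumed floor of 3 fasted reads it was 36.9-fold lower on the centred scale, and its counting interval ends at -4.88. That gene already had the lowest ratio of the 9, so putting it at this floor could not change their median. Protein 2 of that family stood at 5.17 and 0.765 RPKM (gene2188, -2.65), and proteins 7 and 6 had -2.13 (gene4097) and -2.20 (gene19992). A C1q receptor gene stood at 7.40 and 3.46 RPKM (gene16013, -1.48). The C1q-binding protein of mitochondria, by contrast, stood at 10.7 and 24.1 RPKM (gene13102, 0.65). Fibroblast and endothelial markers were lower in the same library, as given above, and their part in these values was not tested.

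Of 7 entering genes that only contain the word interferon, 2 were past 2-fold higher. Interferon-stimulated 20 kDa exonuclease-like 2, a nucleolar enzyme of ribosome assembly, stood at 1.06 and 10.4 RPKM (gene16687, 2.32). IRF2-binding protein 1, a corepressor, stood at 2.85 and 18.3 RPKM (gene12181, 2.002), with its other gene at 0.33 (gene15808). The relatives IRF2-binding protein 2-A and 2-B, both abundant, had -0.37 (gene3276) and -0.88 (gene11740). Interferon-related developmental regulator 1, known from muscle regeneration in mice, had -0.90 (gene1740) and -0.26 (gene12387), and minor histocompatibility antigen H13, a signal peptide peptidase, -0.06 (gene22406). Without these roles 71 genes remained, 14 higher and 6 lower, with a median of 0.078.

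The size of the background differs with level, so counts were also read by level. At a mean of 20 RPKM or more, 3 of 17 described here were past 2-fold higher and none lower, where 32.6% and 14.6% of all genes were. Between 5 and 20 RPKM, 9 of 33 were higher and 4 lower, where 19.2% and 14.3% of all genes were. Between 1 and 5 RPKM, 4 of 38 were higher and 8 lower, where 7.36% and 18.9% were. The median ratio also differed with level. It was -0.28 for the 17 genes and 0.50 for all genes at 20 RPKM or more. In the middle band it was 0.33 and 0.16, and in the lowest -0.27 and -0.21.

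**Figure D5:**
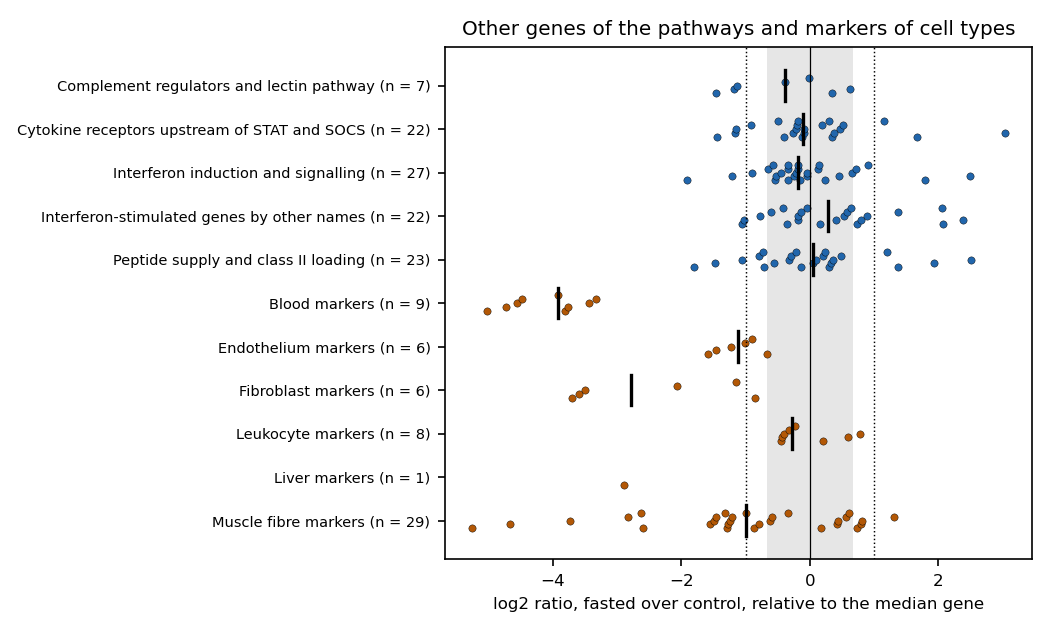
Each point is 1 entering gene, placed by its log2 ratio relative to the median gene (x), in rows of other pathway genes (blue) and cell type markers (brown), with the number of genes in brackets; vertical offsets only separate points. Bars are medians, the grey band is the interquartile range of all genes and dotted lines mark 2-fold. All blood markers lie left of -3, fibroblast markers have a median of -2.79, leukocyte markers lie within 2-fold, and the muscle fibre median is -0.995.

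Muscle fibre markers were abundant in both libraries, as the tissue label says. The 35 genes listed summed to 283133 RPKM in the control library and 228306 after fasting. The sums lean on alpha skeletal actin, which alone stood at 115733 and 55199 RPKM (gene5086, -1.55). Of the 29 that entered, 14 were past 2-fold lower (48.3%, beside 16.6% of all genes) and 1 higher. A ratio above 0 was found for 9 of the 29, among them an abundant fast myosin heavy chain at 13876 and 34088 RPKM (gene23811, 0.81). The name patterns also caught smooth muscle myosin light chain kinase, which is not a fibre marker.

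In the authors' deposited table of calls, 139 of the 210 genes are listed, 49 called up and 15 down, where 30.3% and 14.5% of all 16883 genes listed are. The authors' deposited FPKM listed for first exons, made from the same reads, gave both values for 46 of the genes. In the control library the SOCS7 value, 0.966 FPKM, is the sum of both forms of its skipped exon given below. First-exon FPKM thus appears to be the level of transcript forms that hold a first exon, not of the exon alone. Of 14 among them past 2-fold in RPKM, all 14 had a first-exon ratio of the same sign and 12 were past 2-fold. For CCL4 gene4648 the same sign means little, as its first-exon ratio was -0.01 against -1.04. Some genes within 2-fold in RPKM were past it in first-exon FPKM, such as C4 (1.36), CXCL14 (-1.61) and C1s (-1.01). Others changed sign, such as IRF7 (0.32 in RPKM and -0.60 in first-exon FPKM). For STAT3 the authors' deposited lists also give both forms of a skipped exon (bases 134842 to 134904 on scaffold NW_011322440.1). In the control library the form with the exon had 8.32 FPKM and the form without it 4.30, and in the fasted library they had 40.3 and 0. SOCS7 had 0.541 FPKM with and 0.425 without a skipped exon in the control library and 3.99 and 1.52 in the fasted one. These are single estimates with no replicate and no read count, and a listed 0 may be a failed estimate.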

How the data were processed

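Per the labels' protocols, muscle RNA was taken up in Trizol and libraries were built with the TruSeq kit. The treatment label put each library in its group. Tools listed in the submitters' processing notes, with no role, are HTSeq, SAMtools 0.1.19, TopHat and TopHat2 2.0.12. The sources used here give no genome build, annotation or strand setting, so reads of overlapping genes on opposite strands cannot be told apart.

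Gene levels are RPKM deposited by the authors. Their deposited comparison table holds RPM (reads scaled to a common total), the fold and its log2, and a p-value before and after adjustment. The sources do not say how p was made without replicates, and adjustment lowered it for 12136 of 16883 genes, so only the calls are described. The authors also deposited FPKM of exon events. An event was given to a gene here when it overlapped that gene alone on the same strand. Region lists without these genes' names and duplicate tables were left out.

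The deposited RPM values are whole multiples of 1 read. Within a tolerance of 0.1 read, 100% of values above 0 came out whole in both libraries, and 3 reads, the floor, equal 0.109 RPM in the control library and 0.113 after fasting. Of the 210 genes, 139 are in that table, and 24 others have an RPKM of at most 0.365. A gene entered at a mean of 1 RPKM. The ratio used a pseudocount of 0.5 RPKM, which understates the change of low genes, and was centred on the median of all entering genes since that lay over 0.1 from 0. The size was fixed at 2-fold. No test was run on the recovered reads, because without replicates they give no estimate of dispersion. Intervals are 95% Clopper-Pearson intervals of the fasted share of both libraries' reads, and count PCR copies as if they were separate molecules. Python 3.11.15 with scipy 1.17.1 was used, and the steps were tested on simulated data.

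In each role, genes with at least 5 RPKM in the higher library are named if at most 8, otherwise the 4 largest and 4 smallest ratios, and in roles with none at that level the highest gene. Genes 4-fold from the median are named too, and of each other list the largest and the smallest ratio at 5 RPKM or more. This names 62 genes. Further genes were chosen after their values were seen, mostly copies of a named gene or genes of the same complex. The genes, lists and tests were chosen with earlier results of these data known, and 2 role patterns were corrected after the names in the table were read. The values of some genes that the naming rule chose are not reported here.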

Additional observations from a re-analysis of the deposited data

How the results depend on the processing

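Without centring, on RPKM as deposited, 28 genes were at least 2-fold higher and 6 lower, the median ratio was 0.42 in place of -0.064, and higher genes made up 82.4% of those past 2-fold in place of 57.1% (77.0% in place of 49.3% over all genes). Scaled on RPKM without the 20 most abundant genes, the median was -0.23 and the split 16 higher and 17 lower, or 48.5% higher (38.7% over all genes). With no filter on level, 25 of 163 genes were higher and the share of higher genes was 73.5%, and with a mean of at least 5 RPKM the median was -0.22. At a size of 1.5-fold, 28 of 88 genes were higher and 25 lower, beside 27.5% and 27.7% of all genes. Of the named genes, 39 were past that size. At 3-fold, 12 were higher and 6 lower, beside 7.40% and 7.81% of all genes. Without proteins that only share a name, an alternative chosen after seeing the data, 6 of 71 were lower, beside 16.6% of all genes. The median was then 0.078 and the share of higher genes was 70.0% (49.3% over all genes). The sign of the median over the whole set therefore depends on the scale and on which names are kept. Some role medians kept their sign across the scalings, as given above. The filter also sets the shift that centring removes, 0.17 with no filter and 0.74 at 5 RPKM. For the rest the cause was not tested. Pseudocounts of 0.1 and 1 RPKM, reads in place of RPKM, and a scaling on reads without the 20 most abundant genes, added later, moved none of these counts by over 1.5 times. No named gene past 2-fold changed sign in any of these scaling, pseudocount and filter settings that kept it.

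No paired analysis was possible because each group has 1 library. For the same reason, leaving out a library was not run. Without replicates, differences between fish, pieces of tissue and library preparations cannot be told apart from the treatment. Depth limits the low genes: 122 of 210 did not reach a mean of 1 RPKM, and the floor for a gene with 0 reads is 0.109 RPM (control) and 0.113 RPM (fasted).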

Other observations

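Interferon-inducible GTPase 5 (gene8032) had 20.8 RPKM in the control library and 22.5 after fasting. The first-exon FPKM given to it by position was 1006 and 479, far above its gene level in both libraries. Whether those forms belong to this gene was not tested. C1s (gene16620) has a skipped exon listed in the control library alone, with 6.97 FPKM for the form with the exon and 18.9 for the form without it. MDA5 (gene4997) had a first-exon ratio of 0.51 against 1.33 in RPKM.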
